A study of Mus musculus with 9 samples.

Results

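The genes described here are 10 genes of glycolysis and glycerol metabolism used by male germ cells: Pgk2, Gapdhs, Ldhc, Aldoart1, Aldoart2, Eno4, Pgam2, Gk2, Gykl1 and Slc2a3. They were chosen by symbol and not by a filter on their values, though with earlier results of these data known. All 10 were found among the 23074 genes of the count table. RNA-Seq was done on testes freed of their capsule, taken at days 29 to 30 after birth (P29-30), with 1 library from each of 5 wild type (WT) and 4 Rfx2-/- mice. The study describes a line of mixed C57BL/6, 129/Sv and FVB/N origin and a line backcrossed onto C57BL/6. Its methods do not say which of them gave these testes. RFX2 belongs to the RFX transcription factors, and the Rfx2-/- mice carry a deletion of the exon that holds most of its DNA binding domain in every cell, so reads from the other exons of Rfx2 are still counted. The question put to these genes was how their mRNA levels differ in testes that lack RFX2.

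Sperm and late spermatids make much of the ATP for motility by glycolysis in the flagellum. For several steps of the pathway they use isoforms encoded by separate genes, which are switched on in meiotic and haploid cells while the widely expressed forms decline. Pgk2, Aldoart1, Aldoart2, Gk2 and Gykl1 each lie in a single exon, the form left by a gene copied back from mRNA, whereas Gapdhs, Ldhc, Eno4, Pgam2 and Slc2a3 have introns. The label of sperm-specific genes does not hold equally for all: Pgam2 is also the phosphoglycerate mutase of skeletal muscle, and Slc2a3 (GLUT3) is also the glucose transporter of neurons.

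The germ cell copies can be near in sequence to their widely expressed counterparts, which bears on how well short reads tell them apart. Over aligned coding bases, identity to the counterpart was 93.9% for Aldoart1 and 91.6% for Aldoart2 against Aldoa, and 89% between the 2 copies. It was 82.6% for Gykl1 and 80.5% for Gk2 against Gk, 79.3% for Pgk2 against Pgk1, 74.8% for Pgam2 against Pgam1, 73.3% for Ldhc against Ldha, 67.8% for Gapdhs against Gapdh, 66.4% for Slc2a3 against Slc2a1 and 44.4% for Eno4 against Eno1. The aldolases are printed here because the only gene of the 10 called lower in Rfx2-/- testes is one of them. These are 120 coding bases of the GENCODE M21 models (GRCm38), 5′ to 3′ from an ATG codon that all 3 share and that starts the Aldoart2 model, at coding bases 163 to 282 of Aldoa, 166 to 285 of Aldoart1 and 1 to 120 of Aldoart2, and capitals mark bases that differ from Aldoa.
Aldoa: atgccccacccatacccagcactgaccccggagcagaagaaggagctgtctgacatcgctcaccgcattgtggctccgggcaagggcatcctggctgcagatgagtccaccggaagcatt
Aldoart1: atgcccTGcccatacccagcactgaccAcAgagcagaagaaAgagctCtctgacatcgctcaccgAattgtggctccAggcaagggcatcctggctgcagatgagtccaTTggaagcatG
Aldoart2: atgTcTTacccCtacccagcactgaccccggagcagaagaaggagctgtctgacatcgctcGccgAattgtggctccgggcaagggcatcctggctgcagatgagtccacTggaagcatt
Aldoart1 differed from Aldoa at 11 of these bases and Aldoart2 at 7. Over the whole models, 5.79% of the 50-base windows of Aldoart1 and 0.311% of those of Aldoart2 also occur in another gene, so most reads of either gene have 1 place of origin. The share was 4.51% for Eno4 and 4.38% for Gapdhs, both through an exon of another gene on the opposite strand (Hspa12a and Tmem147os), 1.48% for Gk2 and 0 for the other 5 genes.

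Totals were 13574764 to 15193330 counts in 8 libraries and 28800855 in Rfx2-/- replicate 1. Levels are given as CPM, the reads of a gene relative to its library's total after TMM adjustment, as mean ± SD over 5 WT or 4 Rfx2-/- libraries. Rfx2 itself had 549 ± 54.5 CPM in WT and 199, 61.4, 151 and 173 CPM in the 4 Rfx2-/- libraries, all below WT (log2 fold change -1.91, SE 0.28, edgeR adjusted p = 7.81e-04). Rfx2-/- replicate 2 stood apart in a way that follows transcript length. Each library was set against the mean of the other libraries of its own genotype. In Rfx2-/- replicate 2, genes with under 2 kb of exons lay at a median log2 deviation of 0.611 and those over 8 kb at -0.928. The values were -0.374 and 0.526 in Rfx2-/- replicate 1, -0.204 and 0.382 in replicate 3, and 0.00725 and 0.0127 in replicate 4. In WT they ran from -0.116 to 0.109. Those of Rfx2-/- replicates 1, 3 and 4 are taken against means that include Rfx2-/- replicate 2. The exons of the 10 genes sum to between 840 bases (Pgam2) and 4369 bases (Slc2a3), and those of the other 8 to between 1580 and 2570 bases, so the fold changes and ratios of the 10 genes are also given without this library where a limit is crossed or the value moves by over 1.5 times. In whole testis RNA, fewer cells of a type and less RNA per cell cannot be told apart.

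Together the 10 genes took 0.800% to 0.933% of all counts in WT libraries and 0.719% to 1.06% in Rfx2-/- libraries, the highest share being that of Rfx2-/- replicate 2. All 10 were well covered, with 431 counts or more in every library, and all 10 passed the filter on low counts. Per kb of exon, WT testes had most of Ldhc (2072 ± 236 CPM per kb), followed by Pgam2 (729.8 ± 92.4), Gapdhs (558 ± 124), Slc2a3 (467 ± 18.4), Pgk2 (393 ± 73.9), Gk2 (331 ± 52.1), Gykl1 (249 ± 45.9), Aldoart2 (199.6 ± 39.9), Aldoart1 (46.2 ± 9.77) and Eno4 (29.7 ± 6.78). The WT ranges of neighbours in this order overlapped except between Ldhc and Pgam2 and between Aldoart2 and Aldoart1. Within single WT libraries the order held in 5 of 5 for 7 of the 9 neighbouring pairs, and in 4 of 5 for Gapdhs over Slc2a3 and for Slc2a3 over Pgk2.

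Between genotypes, 1 of the 10 genes, Aldoart1, was called lower in Rfx2-/- testes and 0 were called higher, where a call needs an edgeR adjusted p at or under 0.01 over all 15613 genes tested and a change over 2-fold. Over all genes tested, 3.68% were called lower and 0.826% higher by this rule. At an adjusted p at or under 0.05 without a fold limit, Aldoart1 and Aldoart2 were lower and 0 were higher, against 7.31% lower and 3.48% higher over all genes. Without adjustment, 6 of the 10 were lower and 0 higher at p under 0.05, against 13.7% and 13.9% over all genes. DESeq2 put 4 lower and 0 higher at an adjusted p at or under 0.05. Its share over all genes at this limit was not counted, so the 4 cannot be set against a background. Under the call rule DESeq2 called more genes than edgeR, 693 against 575 lower and 198 against 129 higher. The log2 fold change was below 0 for 8 of 10 genes, against 46.9% of all genes, and its median was -0.50, against 0.032 over all genes. Every Rfx2-/- library lay below every WT library for 2 of the 10 genes, Aldoart1 and Slc2a3, and above it for 0, against 9.71% and 6.14% of all genes. The share of genes below 0 or past a limit describes these 10 genes and was given no test.

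**Figure D1:**
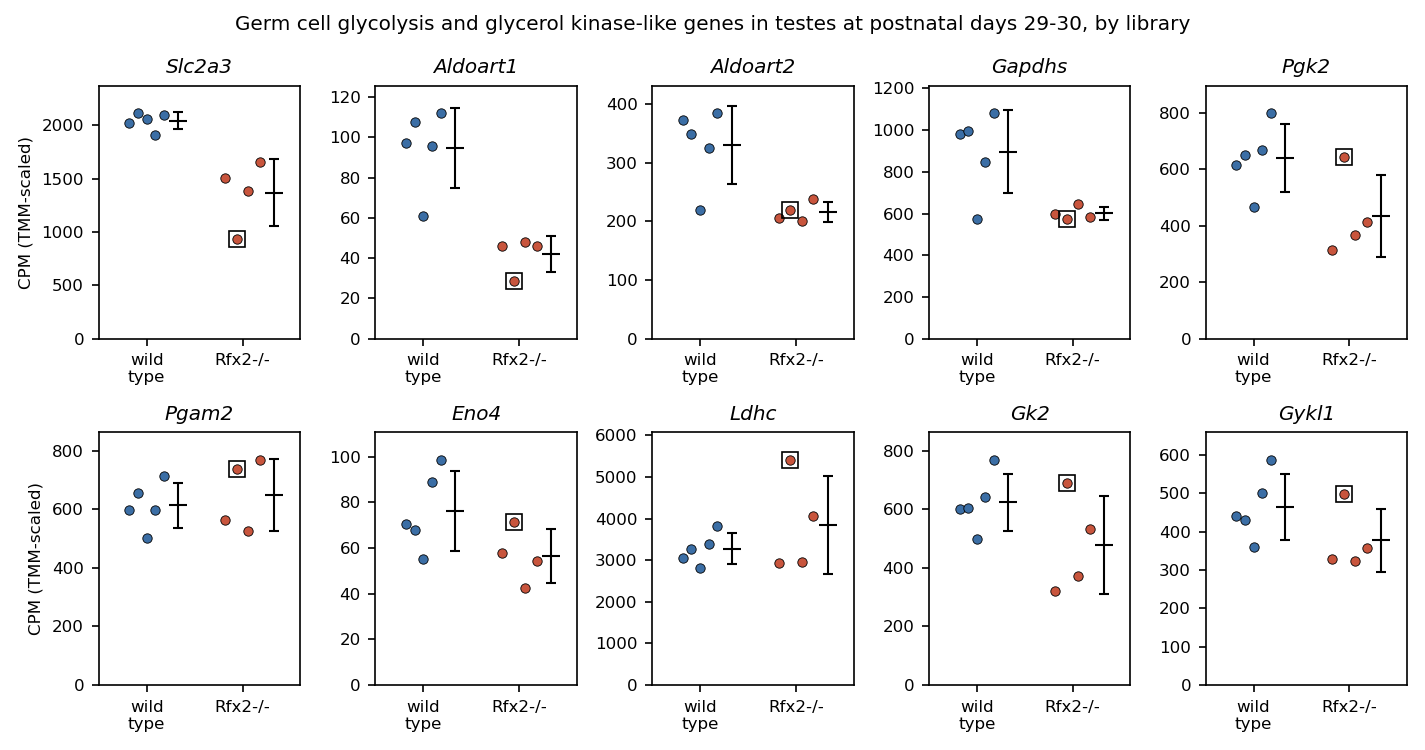
CPM of each of the 10 genes by library, on axes that start at 0, for WT (blue, 5 libraries) and Rfx2-/- (red, 4 libraries), with mean ± SD in black at the right of each group and a square around Rfx2-/- replicate 2. Aldoart1 and Slc2a3 do not overlap between genotypes, and the squared library is the highest of its group for Pgk2, Eno4, Ldhc, Gk2 and Gykl1 and the lowest for Aldoart1, Slc2a3 and Gapdhs.

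Glucose enters germ cells through transporters of the SLC2 family, of which Slc2a3 encodes GLUT3, a carrier with high affinity for glucose. Slc2a3 (chr6:122727809-122801640) had 2023, 2115, 2062, 1912 and 2098 CPM in WT and 1504, 934, 1380.1 and 1659.7 CPM in Rfx2-/-. All Rfx2-/- libraries lay below all WT libraries, with replicate 2 the lowest, and the WT libraries differed little from each other (coefficient of variation 3.94%, against 22.8% in Rfx2-/-). The log2 fold change was -0.58 (SE 0.17, 95% interval -0.96 to -0.20, edgeR adjusted p = 0.0548), just outside the 0.05 limit over all genes. Without Rfx2-/- replicate 2, the lowest library, it was -0.43 with an adjusted p of 0.0196, and DESeq2 on all libraries gave 0.00678.

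Aldolase splits fructose bisphosphate into triose phosphates, and Aldoart1 and Aldoart2 encode its spermatid forms. Aldoart1 (chr4:72850583-72852634) had 97.1, 108, 61.1, 95.5 and 112 CPM in WT and 45.9, 28.8, 47.7 and 45.95 CPM in Rfx2-/-. All Rfx2-/- libraries lay below all WT libraries, WT replicate 3 was the lowest of WT and Rfx2-/- replicate 2 the lowest of all. The Rfx2-/- mean was 44.4% of the WT mean (log2 fold change -1.17, SE 0.21, 95% interval -1.62 to -0.72, edgeR adjusted p = 0.00279). As single libraries were left out the log2 fold change ranged from -1.25 to -1.02. The call was lost without Rfx2-/- replicate 4, where the adjusted p was 0.0111, and when the change itself was tested against 2-fold.

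Aldoart2 (chr12:55565239-55566896) had 374, 350.2, 220.0, 325 and 385 CPM in WT and 205, 220.2, 199.98 and 238 CPM in Rfx2-/-. The genotypes overlapped through WT replicate 3 alone, which had less Aldoart2 than 2 of the 4 Rfx2-/- libraries. Its log2 fold change was -0.62 (SE 0.17, 95% interval -0.99 to -0.24, edgeR adjusted p = 0.0399), with an adjusted p of 0.00683 to 0.107 as single libraries were left out. The log2 ratio of Aldoart1 to Aldoart2 counts within a library was -1.81 ± 0.0928 in WT and -2.38 ± 0.389 in Rfx2-/-, a difference of -0.58 (exact permutation test over libraries, two-sided, p = 0.0159, the smallest that regroupings of 5 and 4 libraries can give, adjusted p = 0.0476 over 45 pairs of genes), and it differed by -0.39 without Rfx2-/- replicate 2. Aldoa, the widely expressed aldolase, had 315 ± 44.4 CPM in WT and 284 ± 24.2 in Rfx2-/- (log2 fold change -0.15, edgeR adjusted p = 0.537).

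The later steps of glycolysis start with glyceraldehyde-3-phosphate dehydrogenase, for which spermatids use Gapdhs, and phosphoglycerate kinase, for which they use Pgk2. Gapdhs (chr7:30729775-30743681) had 981, 996, 575, 847 and 1082 CPM in WT and 595, 576, 648 and 582 CPM in Rfx2-/-. The Rfx2-/- libraries were close together (coefficient of variation 5.45%), and WT replicate 3 lay just under them while the other 4 WT libraries were higher. The log2 fold change was -0.58 (SE 0.18, 95% interval -0.98 to -0.18, edgeR adjusted p = 0.0662), and it was -0.66 with an adjusted p of 0.0105 without WT replicate 3 and -0.56 with 0.0492 without Rfx2-/- replicate 2.

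Pgk2 (chr17:40207015-40208640) had 615, 652, 464, 669 and 799 CPM in WT and 312, 644, 367 and 412 CPM in Rfx2-/-. Rfx2-/- replicate 2 lay within the WT range, and the other 3 Rfx2-/- libraries lay below all WT libraries. With all libraries the log2 fold change was -0.56 (SE 0.22, 95% interval -1.05 to -0.07) and the edgeR adjusted p was 0.131. Without Rfx2-/- replicate 2 it was -0.81 with an adjusted p of 0.00377, and with a length trend removed from every library it was -0.73 with an adjusted p of 0.00917, so the call at 0.05 for Pgk2 depends on how this library is treated.

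Phosphoglycerate mutase and enolase follow. Pgam2 (chr11:5801640-5803733) had 597, 655, 503, 599 and 712 CPM in WT and 562, 736, 524 and 769 CPM in Rfx2-/-. The genotypes overlapped, with 2 Rfx2-/- libraries above every WT library, and the log2 fold change was 0.080 (SE 0.17, 95% interval -0.28 to 0.44, edgeR adjusted p = 0.78), so a fall of more than 0.28 on the log2 scale lies outside the interval. It was 0.013 without Rfx2-/- replicate 2. Its sign was negative after removal of the length trend (-0.091) and without both Rfx2-/- replicate 2 and WT replicate 3 (-0.050). In these 2 settings the 95% interval reached further down, to -0.40 and -0.34. Markers of skeletal muscle, the other tissue with much Pgam2, were near 0: the 7 listed summed to 11.1 to 14.8 CPM in WT and 10.9 to 18.2 CPM in Rfx2-/- and 2 of them, Acta1 and Tnnt3, were at 0 in at least 1 library. Eno4 (chr19:58943425-58971421), the enolase-like protein of the sperm tail, had 70.4, 68.1, 55.1, 88.9 and 98.7 CPM in WT and 57.8, 71.2, 42.5 and 54.1 CPM in Rfx2-/-. The highest Rfx2-/- library was again replicate 2, and the genotypes overlapped (log2 fold change -0.43, SE 0.20, edgeR adjusted p = 0.177).

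RFX proteins bind the X-box, whose core reads GTTGCC. RefSeq windows (GRCm38.p6) from 250 bases before to 50 bases after the start were searched on both strands, with 9 windows for 7 of the 10 genes (Gk2, Gapdhs, Ldhc, Pgam2, Aldoart2, Pgk2 and Eno4). The core was found in 2 of the 9, those of Eno4 and Pgam2, and in 12.5% of all 32851 windows. Both are shown from 150 bases before the start, on the strand of the gene, with the core in capitals, at chr19:58943275-58943402 (plus strand) for Eno4 and chr11:5803808-5803946 (minus strand) for Pgam2.
Eno4: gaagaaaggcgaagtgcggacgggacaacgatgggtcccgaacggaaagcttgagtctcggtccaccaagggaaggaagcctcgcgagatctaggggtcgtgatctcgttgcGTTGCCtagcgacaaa
Pgam2: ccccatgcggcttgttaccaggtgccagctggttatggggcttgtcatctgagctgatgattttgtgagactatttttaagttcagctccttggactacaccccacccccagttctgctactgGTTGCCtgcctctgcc
The core started 38 bases before the start of Eno4 and 27 before that of Pgam2. The longer inverted repeat of GTNNCC and GNNAC, with 3 bases between them, was found in 0 of the 9 windows and 4.62% of all windows. Only this spacing was searched, so repeats with a shorter or longer gap were not counted. The CRE core TGACGT, a motif of the CREB and CREM factors that is contained in the palindrome TGACGTCA, was found in 1 window each of Ldhc and Gapdhs and in 7.51% of all windows, and the palindrome in 0 of the 9 and 1.79% of all. A match is a description of these letters and was not related to binding or to the levels.

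Lactate dehydrogenase ends anaerobic glycolysis, and Ldhc, the form of spermatocytes and later germ cells, was the most abundant of the 10 mRNAs. Ldhc (chr7:46861203-46878142) had 3062, 3279, 2822, 3389 and 3815 CPM in WT and 2938, 5421, 2958 and 4059.6 CPM in Rfx2-/-. Rfx2-/- replicates 2 and 4 lay above every WT library and the other 2 within the WT range. The log2 fold change was 0.23 (SE 0.20, 95% interval -0.21 to 0.67, edgeR adjusted p = 0.476), 0.021 without Rfx2-/- replicate 2 and -0.028 without both that library and WT replicate 3.

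Glycerol kinase makes glycerol 3-phosphate, and Gk2 and Gykl1 encode germ cell proteins related to it that lie at the surface of mitochondria in spermatids. Gk2 (chr5:97455142-97457021) had 602, 605, 497, 640.5 and 769 CPM in WT and 321, 688, 373 and 532 CPM in Rfx2-/-. Replicates 1 and 3 of Rfx2-/- lay below all WT libraries, while replicates 2 and 4 lay within the WT range. The log2 fold change was -0.38 (SE 0.22, 95% interval -0.87 to 0.11, edgeR adjusted p = 0.288), and without Rfx2-/- replicate 2 it was -0.61 with an adjusted p of 0.0329. Gykl1 (chr18:52693690-52695550) had 439.7, 431, 359.5, 499.5 and 588 CPM in WT and 329.8, 499, 324 and 356 CPM in Rfx2-/-. Its pattern was like that of Gk2 with smaller differences, 3 of the 4 Rfx2-/- libraries lying below all WT libraries, and the log2 fold change was -0.30 (SE 0.19, edgeR adjusted p = 0.315), or -0.46 with an adjusted p of 0.0516 without Rfx2-/- replicate 2.

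**Figure D2:**
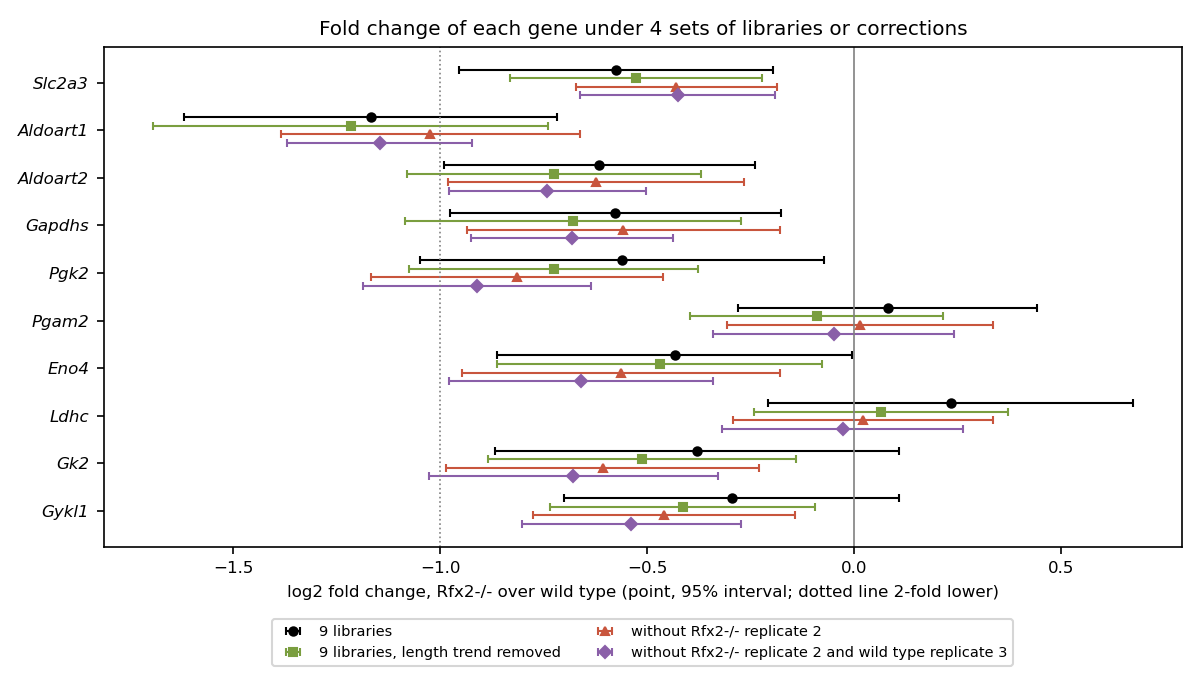
Log2 fold change of each gene, Rfx2-/- over WT, with its 95% interval from edgeR, for all 9 libraries (black), with the length trend removed (green), without Rfx2-/- replicate 2 (red) and without both that library and WT replicate 3 (violet), with a dotted line at a 2-fold fall. Pgk2 moves from -0.56 to -0.81 and Gk2 from -0.38 to -0.61 without Rfx2-/- replicate 2, while Ldhc moves from 0.23 to 0.021 and all 4 intervals of Pgam2 and Ldhc hold 0.

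Leaving out Rfx2-/- replicate 2 moved the number of genes lower at an adjusted p at or under 0.05 from 2 to 6 of 10 (Aldoart1, Aldoart2, Gapdhs, Pgk2, Gk2 and Slc2a3), beside 9.77% of all genes in the same fit (4.93% were higher). Removing the length trend from all 9 libraries gave 5 of 10 (the same genes without Gk2), beside 9.56% of all genes (4.97% higher). Leaving out WT replicate 3 gave 3 of 10, beside 6.85% of all genes (2.84% higher), and leaving out both gave 8 of 10, all except Ldhc and Pgam2, beside 12.6% (6.17% higher). These 2 libraries were singled out after their values were seen. WT replicate 3 was the lowest WT library for all of the 10 genes but Slc2a3, and leaving it out lowered their fold changes. Rfx2-/- replicate 2 was the highest of its group for Pgk2, Eno4, Ldhc, Gk2 and Gykl1, and leaving it out lowered those of these genes. The larger counts thus follow in part from which libraries were left out. Under none of these settings was any of the 10 genes higher.

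The 10 genes were also set against each other. Of the 45 ratios between them within a library, 15 differed between genotypes (exact permutation test over libraries, two-sided, adjusted p = 0.0476 for each over the 45 pairs), and in all 15 every Rfx2-/- library lay on 1 side of every WT library. This comparison was chosen after the values were seen. Such a split is what the smallest p of this test means, so it adds nothing to the p. The share of other gene pairs that differ in this way was not counted, so the 15 cannot be set against a background. With the length trend removed, the differences kept their sign but 0 of the 45 pairs passed, with an adjusted p of 0.0510 at the lowest. Without Rfx2-/- replicate 2 also 0 passed (0.0945 at the lowest, with the smallest p that 5 and 3 libraries can give). The adjusted p of a pair at the smallest p rests on how many of the 45 pairs share that p. These counts of 0 thus cannot decide whether the differences were lost. The difference was largest for Ldhc to Aldoart1, at 1.36 on the log2 scale, from 5.13 ± 0.237 in WT to 6.49 ± 0.746 in Rfx2-/-. The ratio of Ldhc was also higher relative to Slc2a3 (by 0.80), Aldoart2 (0.78), Gk2 (0.62) and Gykl1 (0.49), and that of Pgk2 to Ldhc was lower (difference -0.79). Pgam2 was likewise higher relative to Slc2a3 (0.68), and Aldoart1 (difference -1.24), Pgk2 (-0.66), Aldoart2 (-0.66) and Eno4 (-0.50) were lower relative to Pgam2. Rfx2-/- replicate 2 carried much of some of these: Ldhc to Slc2a3 was at 2.54 in this library and at 0.966 to 1.29 in the other 3. Without it 3 of the 15 differences moved by over 1.5 times, Ldhc to Slc2a3 to 0.44, Pgam2 to Slc2a3 to 0.44 and Aldoart1 to Gykl1 from -0.87 to -0.55. The difference for the ratio of Ldhc to Pgam2 was 0.12 (exact permutation test, adjusted p = 0.553). Ratios cancel the scaling of a library but not the effect of length, and Ldhc and Pgam2 have 1580 and 840 exon bases.

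Within genotypes, the levels of some of the genes went up and down together, given as Pearson correlations of deviations from the genotype means over 9 libraries that share depth and processing. Ldhc and Gk2 were at 0.977, Pgk2 and Gk2 at 0.946, Pgk2 and Gykl1 at 0.945 and Gapdhs and Aldoart2 at 0.894. Slc2a3 went the other way from Pgk2 (-0.662), Ldhc (-0.609) and Gykl1 (-0.607). In the 5 WT libraries alone, Slc2a3 had correlations of 0.0291 with Pgk2 and 0.0599 with Ldhc. Among all other named genes tested, the 2 with the level pattern over the 9 libraries most like each member were as follows. They were Atp1b3 and Pafah1b2 for Pgk2 (r = 0.993 and 0.992), Tuba4a and Odf1 for Gapdhs (0.994 and 0.992), and Tcp1 and Cetn1 for Ldhc (0.993 and 0.992). For the aldolases they were Ttll10 and Tent5c for Aldoart1 (0.992 and 0.989) and Ccnd3 and Csnk1d for Aldoart2 (0.994 and 0.9925). Nsmce1 and Rabepk were most like Gk2 (0.985 and 0.983), Ubr7 and 4921504E06Rik Gykl1 (0.955 and 0.955), and Rnf10 and Enthd1 Slc2a3 (0.987 and 0.987). Gm15130 and Rsbn1 were most like Eno4 (0.957 and 0.9545), and G730003C15Rik and Ccna1 Pgam2 (0.982 and 0.973).

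Levels of germ cell stages moved between the same libraries. The 12 markers of elongating spermatids were all tested and all lay below 0, with a median log2 fold change of -0.76. Of these 12, edgeR called 0 and DESeq2 called 3, and 5 (Prm1, Prm2, Tnp1, Odf1 and Akap4) were lower at an edgeR adjusted p at or under 0.05. Their summed level was 8427 to 18010 CPM in WT and 6576 to 11190 CPM in Rfx2-/-, with WT replicate 3 the lowest of WT and Rfx2-/- replicate 2 the highest of Rfx2-/-. The 11 round spermatid markers had a median of 0.36 (9 above 0) and the 9 spermatocyte markers a median of 0.38 (9 above 0). Rises of this size were not confined to these stages, the 9 Sertoli cell markers having a median of 0.34 (7 above 0). Medians of the lists of other cells ran from -0.23 (endothelium) to 0.65 (red blood cell). By library, the median log2 deviation of the elongating markers from the WT mean was -0.71 in WT replicate 3 and -0.90, -0.20, -0.71 and -0.93 in Rfx2-/- replicates 1 to 4. In the same libraries Gapdhs deviated by -0.61, -0.56, -0.60, -0.43 and -0.59, Aldoart2 by -0.56, -0.66, -0.56, -0.70 and -0.45, and Slc2a3 by 0.01, -0.44, -1.13, -0.56 and -0.30. Whether the change in stage markers plays a part in the levels of the 10 genes was not tested. Among markers of other cells of the testis, edgeR called 1 of 5 endothelial genes lower (Vwf), 1 of 9 Sertoli cell genes (Rhox8) was higher at an adjusted p at or under 0.05, and 0 of 7 spermatogonial, 7 Leydig cell, 5 peritubular, 6 macrophage, 4 skeletal muscle and 5 red blood cell genes passed that limit.

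**Figure D3:**
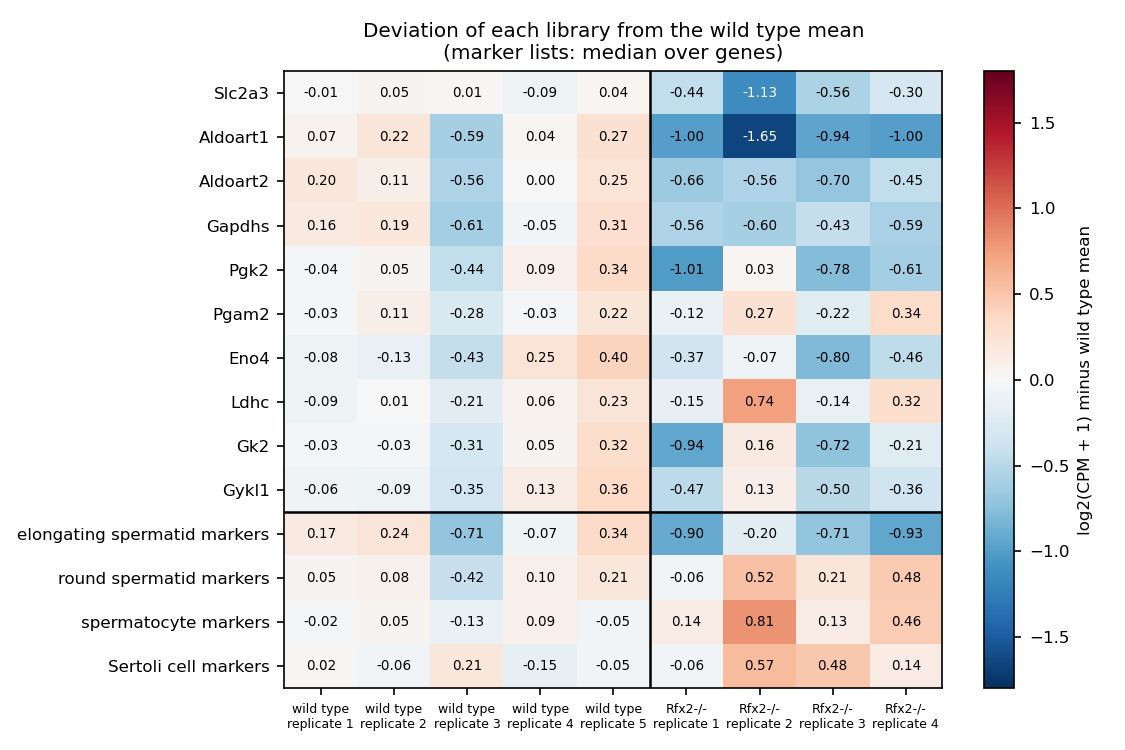
Deviation of log2(CPM + 1) from the WT mean, for each of the 10 genes (upper rows) and as the median over the genes of 4 marker lists (lower rows), by library, with blue below and red above the WT mean and the value printed in each cell. WT replicate 3 is blue for 9 of the 10 genes and for elongating spermatid markers. Rfx2-/- replicate 2 is red for Ldhc and for the markers of spermatocytes (0.81), Sertoli cells (0.57) and round spermatids (0.52).

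Each germ cell gene was also set against its widely expressed counterpart in the same library, as the log2 ratio of counts. The ratio differed between genotypes for 5 of 10 pairs (exact permutation test over libraries, two-sided, adjusted p = 0.0317 over the 10 pairs). It was lower in every Rfx2-/- library than in any WT library for Aldoart1 over Aldoa (difference -1.03), Pgk2 over Pgk1 (-0.595), Slc2a3 over Slc2a1 (-0.55) and Aldoart2 over Aldoa (-0.45), and higher in every Rfx2-/- library for Ldhc over Ldha (0.23, from 2.17 ± 0.0389 to 2.398 ± 0.175). The Ldhc to Ldha ratio was 2.65 in Rfx2-/- replicate 2 and 2.28 to 2.38 in the other 3, and the difference was 0.15 without that library and 0.13 with the length trend removed. The test over 10 pairs needs a p near the smallest these libraries can give, and with 1 library left out 0 to 6 pairs passed. How often ratios of other gene pairs differ was not counted, so the 5 cannot be set against a background. Gykl1 and Gk2 over Gk differed by -0.70 (adjusted p = 0.0529, exact permutation test) and -0.83 (0.0595), Eno4 over Eno1 by -0.51 (0.0595), Gapdhs over Gapdh by -0.70 (0.141), where Gykl1 over Gk was -0.46 and Gapdhs over Gapdh -0.43 without Rfx2-/- replicate 2, and Pgam2 over Pgam1 by 0.046 (0.937).

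Of the 8 counterparts, 0 passed an adjusted p of 0.05 and 0 an unadjusted p of 0.05 by edgeR or by DESeq2. Ldha had 729 ± 70.6 CPM in WT and 718 ± 152 in Rfx2-/-, Eno1 50.9 ± 9.28 and 54.1 ± 12.7, and Slc2a1 11.8 ± 1.44 and 11.4 ± 2.03. Pgk1, Pgam1, Gapdh and Gk were counted at only 12 to 95 reads in any library. Of their 50-base windows, 68.0% for Pgk1, 58.4% for Gapdh, 49.5% for Eno1 and 41.5% for Pgam1 occur in another gene, against 1.36% for Gk, and reads with several places of origin were discarded. The values of Pgk1, Gapdh, Eno1 and Pgam1 are thus not full levels of these genes, and the ratios over them, that of Pgk2 to Pgk1 included, compare with the uniquely placed reads alone.

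**Figure D4:**
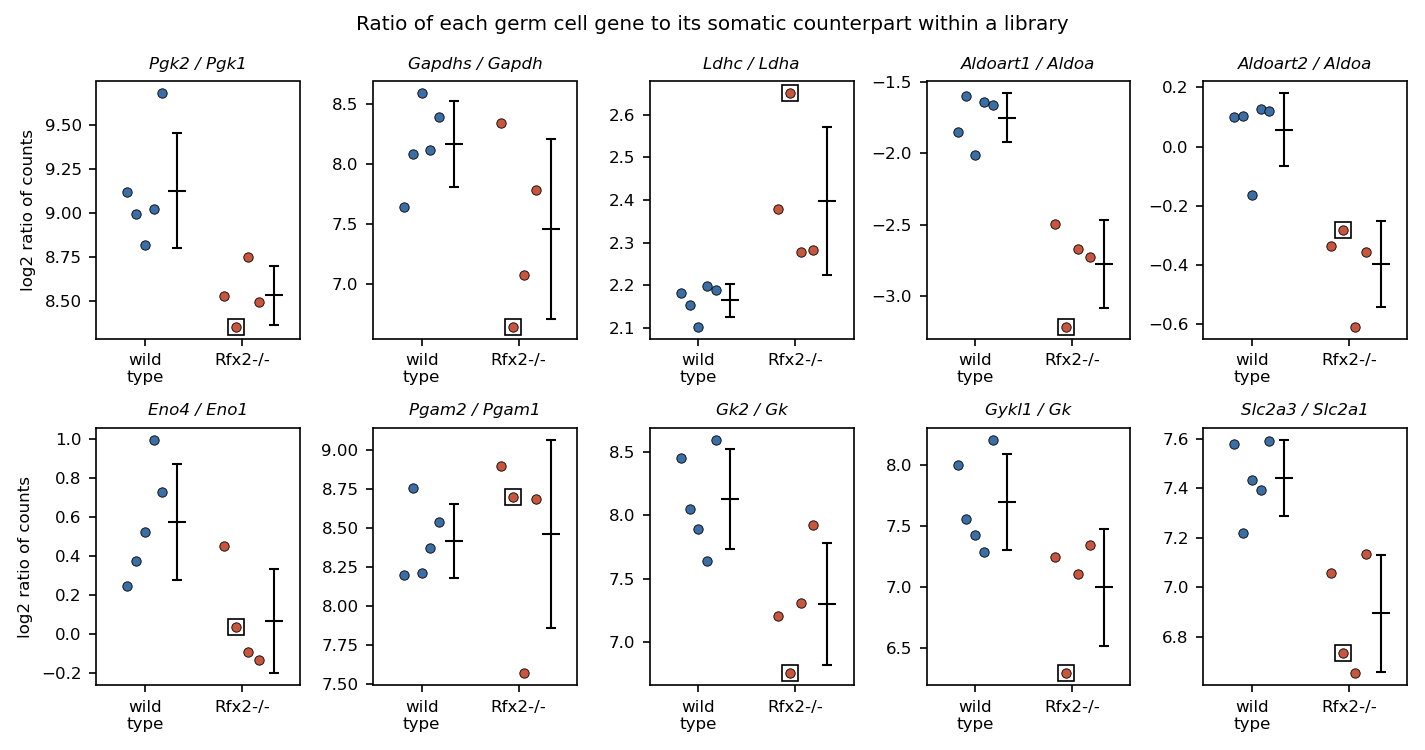
Log2 ratio of the counts of each germ cell gene to those of its widely expressed counterpart in the same library, for WT (blue) and Rfx2-/- (red), with mean ± SD in black and a square around Rfx2-/- replicate 2; the axes do not start at 0. The genotypes do not overlap for the ratios of Pgk2, Ldhc, Aldoart1, Aldoart2 and Slc2a3, and the Ldhc ratio is the one that lies higher in Rfx2-/-.

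Among the other genes of glycolysis, 30 widely expressed enzymes and regulators were listed and 26 tested, of which 1 was called lower, 0 higher, and 4 were lower at an adjusted p at or under 0.05. The called gene was Hk1, hexokinase 1, whose alternative first exons give the germ cell form that is anchored in the sperm tail. Hk1 had 1619, 1749, 1112, 1678 and 1977 CPM in WT and 819.5, 292, 780.2 and 717 CPM in Rfx2-/- (log2 fold change -1.32, SE 0.28, edgeR adjusted p = 0.00989, from 3.07e-06 to 0.0329 over the alternatives other than the test against 2-fold, which it did not pass). The call was lost, with an adjusted p of 0.0102 to 0.0329, when any single library other than Rfx2-/- replicate 2 was left out, and with library totals alone. All Rfx2-/- libraries lay below all WT libraries, and gene counts do not separate the first exons. The other 3, named after their values were seen, were Gpi1, the isomerase after hexokinase (301 ± 64.1 to 170.4 ± 21.5 CPM, log2 fold change -0.82, adjusted p = 0.0128), Pfkfb4, a testis form of the enzyme that sets fructose 2,6-bisphosphate (71.2 ± 6.64 to 39.5 ± 4.82 CPM, -0.85, 0.00132), and the weakly expressed Pfkfb1 (2.81 ± 0.159 to 1.72 ± 0.389 CPM, -0.71, 0.0483). Pfkfb1 missed 0.05 when any 1 library other than Rfx2-/- replicate 2 was left out (adjusted p of up to 0.123). For the 26 tested, 13 lay below 0 and 13 above, with a median of 0.0039.

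**Figure D5:**
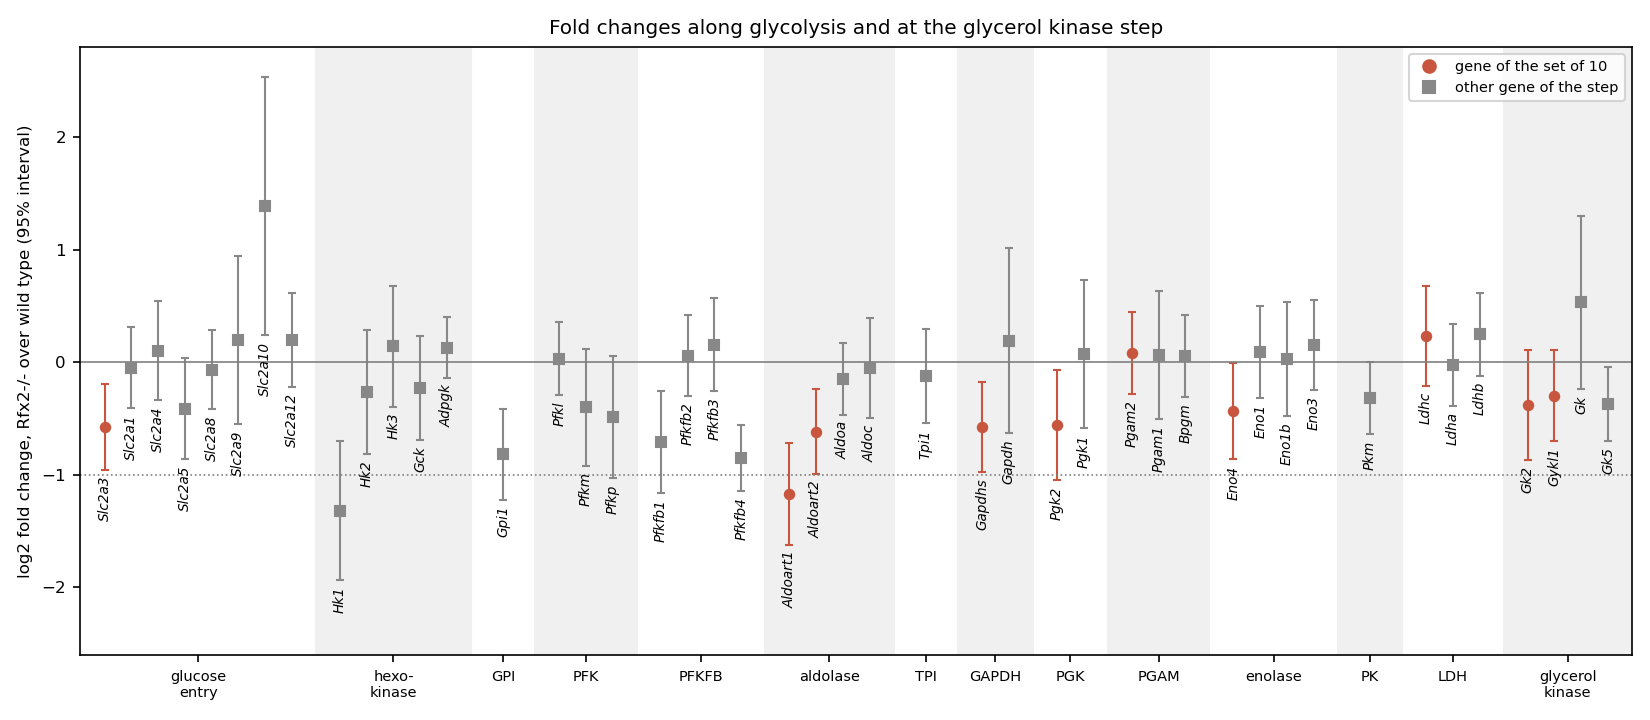
Log2 fold change, Rfx2-/- over WT, with its 95% interval, for the 10 genes (red circles) and the other tested genes of each step (grey squares), ordered from glucose entry to lactate with glycerol kinase last, and a dotted line at a 2-fold fall. GPI is glucose-6-phosphate isomerase, PFK phosphofructokinase, TPI triose phosphate isomerase, PGAM phosphoglycerate mutase, PK pyruvate kinase and LDH lactate dehydrogenase. Hk1 and Aldoart1 are the 2 genes whose point lies beyond the dotted line.

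Of 17 listed genes that handle pyruvate and lactate, 14 were tested, of which edgeR called 0 and DESeq2 called 1, higher. By edgeR, 0 were lower and 3 higher at an adjusted p at or under 0.05, with a median of 0.27 and 12 of 14 above 0. By library, the median log2 deviation of the list from the WT mean was 0.567 in Rfx2-/- replicate 2 and -0.0822, 0.215 and 0.231 in replicates 1, 3 and 4. These 3, also named after their values were seen, were Dld, the dihydrolipoamide dehydrogenase of the pyruvate dehydrogenase complex (98.6 ± 5.21 to 163 ± 51.4 CPM, log2 fold change 0.72, edgeR adjusted p = 0.0246), Mpc1, a subunit of the mitochondrial pyruvate carrier (3.19 ± 0.351 to 5.11 ± 0.515 CPM, 0.68, 0.0211), and Ldhd, which oxidises D-lactate (7.9 ± 1.42 to 15.9 ± 6.69 CPM, 1.01, 0.0315). Each of them missed 0.05 when certain single libraries were left out, with an adjusted p of up to 0.0686 for Dld and 0.0690 for Mpc1 (both among WT libraries) and 0.0865 for Ldhd (4 WT libraries or Rfx2-/- replicate 3). Ldhd overlapped between genotypes, at 6.31 to 9.77 CPM in WT and 11.5, 20.9, 22.3 and 8.89 CPM in Rfx2-/- replicates 1 to 4. Pdha2, the germ cell subunit of pyruvate dehydrogenase, had 209 ± 13.2 CPM in WT and 218 ± 29.3 in Rfx2-/- (log2 fold change 0.061). Of 7 other hexose transporters and 10 other genes of glycerol metabolism tested, 0 passed an edgeR adjusted p of 0.05, and 1 of the glycerol genes was lower at that limit by DESeq2. Among these, Slc2a10 in the first list and Gk5, Gpd2 and Aqp3 in the second had an unadjusted p under 0.05 by edgeR.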

How the data were processed

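By the study's methods, total RNA of whole testes was used by the authors to make TruSeq libraries, and single reads were mapped to GRCm38 (Ensembl 70), dropped where they had several positions and counted over merged exons of protein coding isoforms, leaving out reads that overlap exons of different genes. The deposited values are raw counts per gene, without normalisation. Their notes name CASAVA 1.8.2, STAR 2.4 and featureCounts 1.4.6, but 2 read lengths (50 and 46 bases) and 2 aligners are given, and strand use is not stated, so overlaps on opposite strands may exchange reads.

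Groups came from the genotype labels, and columns were matched by animal number. Gene names came from GENCODE M21 (96.62% of IDs). The genes and lists were chosen with earlier results of these data known. edgeR 4.0.16 (R 4.3.3; quasi-likelihood F test, robust, TMM, filterByExpr, Benjamini-Hochberg over 15613 genes) compared genotypes, and DESeq2 1.42.0 was an alternative, in which 8 genes had no adjusted p. A call needed an adjusted p at or under 0.01 and over 2-fold, the limits of the study applied to the adjusted p. Ratios used counts plus 0.5 and two-sided exact permutation tests over libraries. The length trend was a lowess curve of each library's deviation on exon length, entered as an offset. The 2 genes named as most like each of the 10 had the highest Pearson correlations of log2(CPM + 1). Named were the 10 genes, Rfx2, the counterparts and called genes of the lists, and others only where said. The tests were tried on simulated data. Each library is 1 mouse, and no pair within a genotype agreed within sampling noise (chi-square per gene of 4.521 or more). Alternatives were other scaling, no filter, other limits, single libraries left out, and, chosen after seeing the data, 2 libraries left out together. Ldhal6b and Mpc1l were not analysed here.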

Additional observations from a re-analysis of the deposited data

Results flagged for a closer look

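Of 72 groups of libraries examined (the levels of 26 genes and 10 ratios to counterparts, in WT and in Rfx2-/-, where the 26 are the 10 genes, their 8 counterparts, Rfx2, Hk1, Gpi1, Pfkfb1, Pfkfb4, Dld, Mpc1 and Ldhd), 4 held a library far from the others by Dixon's criterion. Chance flags about 1 in 20 groups, or about 3.6 of 72. Rfx2-/- replicate 2 had 28.8 CPM of Aldoart1 where the other 3 had 45.9 to 47.7, and 6.34 CPM of Gk where the others had 2.16 to 2.32. The log2 ratio of Aldoart2 to Aldoa was -0.162 in WT replicate 3 and 0.0985 to 0.126 in the other WT libraries. The log2 ratio of Pgam2 to Pgam1 was 7.57 in Rfx2-/- replicate 3 and 8.69 to 8.90 in the other Rfx2-/- libraries, at 19 to 40 counts of Pgam1 in any library.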

How the results depend on the processing

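Each of the 10 genes had 431 counts or more in every library. The limits described here are the spread between 4 or 5 mice per genotype, the 2 libraries that stood apart, and the sequence that some counterparts share with other genes. How much each of these, or depth, limited the results was not tested. The number of the 10 genes called lower was 1, with 0 when tested against 2-fold and 2 at an adjusted p of 0.05 and any fold, and 0 to 1 as single libraries were left out. Over all genes, 575 were called lower (272 against 2-fold, 1142 at 0.05 and any fold) and 129 higher (29, 544 and, by DESeq2, 198). Of the ratios to counterparts, 5 differed, and 0 to 6 as single libraries were left out. Of the 45 ratios among the 10 genes, 15 differed, and 0 with the length trend removed or without Rfx2-/- replicate 2, alternatives chosen after seeing the data. Such counts turn on how many pairs share the smallest p that the test can give. A 0 thus cannot decide whether the differences were lost. Scaling by library totals alone moved the median of all genes from 0.032 to 0.16.

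Some log2 fold changes near 0 changed sign. Without both Rfx2-/- replicate 2 and WT replicate 3, an alternative chosen after seeing the data, Ldhc was -0.028, Pgam2 -0.050, Eno1 -0.14, Gapdh -0.30, Gk -0.036, Pgk1 -0.30 and Slc2a1 0.061, while Ldha kept its sign (-0.022 with all libraries and -0.16 here). With the length trend removed, Pgam2 was -0.091, Pgam1 -0.040, Pgk1 -0.060 and the ratio of Pgam2 to Pgam1 -0.018. With library totals alone Ldha was 0.11 and Slc2a1 0.082, and without a filter Ldha was 0.0012. As single libraries were left out, the value ranged up to 0.375 for Ldhc and 0.21 for Pgam2, from -0.055 to 0.23 for Eno1, -0.11 to 0.47 for Gapdh, -0.0091 to 0.73 for Gk, -0.12 to 0.11 for Ldha, -0.14 to 0.29 for Pgam1, -0.27 to 0.26 for Pgk1, -0.11 to 0.057 for Slc2a1 and -0.098 to 0.34 for the ratio of Pgam2 to Pgam1. The cause was not tested. No paired analysis was possible because the replicate numbers follow the order of deposition and the animal numbers differ between genotypes.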
